A study of Mus musculus with 17 samples.

Results

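miR-22 was followed through its mature strands, mmu-miR-22-3p and mmu-miR-22-5p, taken by name from the study's miRNA table, where they are 2 of 1033 mature miRNAs. The locus was chosen by its read levels in these same libraries. Small RNA was sequenced from B8 and D3, which are lines of mouse embryonic stem cells (ESCs). Day 0 samples were undifferentiated ESCs grown on no feeder layer, in medium with serum and LIF, the cytokine that keeps ESCs undifferentiated. Day 7 samples were embryoid bodies, aggregates of differentiating cells formed by the hanging drop method. At day 21 the material was outgrowth from embryoid bodies. The differentiation medium contained retinoic acid, insulin with transferrin and selenium (ITS) and the N2 supplement, and lacked LIF. The groups were B8 at day 0 (3 libraries), B8 at day 7 (3), D3 at day 0 (3), D3 at day 7 (2, replicates 2 and 3) and D3 at day 21 (3). The 3 day 21 samples of B8 were not analysed here. Each line is a single cell line, and embryoid bodies and outgrowths hold mixed cells. Whether replicates came from separate cultures is not labelled, so SDs and p-values reflect only how these samples varied, possibly for technical reasons.

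A microRNA hairpin is cut by Drosha and Dicer into a duplex of a 5p and a 3p strand, and usually one of them is kept by an Argonaute protein while the other is degraded. The kept strand finds target mRNAs mainly through its seed, the bases near its 5′ end. miR-22 is conserved among vertebrates and abundant in heart and skeletal muscle. Its 3p strand is known to repress Tet2 and Tet3, the enzymes that oxidise methylated cytosine, and the histone deacetylase gene Hdac4.

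The mature strands and their hairpin are shown to identify the 2 names followed here. Reads were assigned to each name by the submitters, and their match to these exact sequences was not checked. The sequences are from RefSeq (GRCm38.p6), 5′ to 3′. Capitals mark the seed, bases 2 to 8, in the mature strands, and the 2 mature strands within the hairpin.
miR-22-3p: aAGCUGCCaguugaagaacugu
miR-22-5p: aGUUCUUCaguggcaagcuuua
Mir22 hairpin: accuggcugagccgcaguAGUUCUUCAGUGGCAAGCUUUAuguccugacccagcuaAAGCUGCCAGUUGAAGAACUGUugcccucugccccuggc

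The hairpin of 95 bases lies on the plus strand of chromosome 11 (GRCm38, 75463716 to 75463810), miR-22-5p at 75463734 to 75463755 and miR-22-3p at 75463772 to 75463793. In GENCODE M21 it lies inside exon 2 of both annotated transcripts of Mir22hg, a noncoding host gene on the same strand (75461539 to 75466676). A fold predicted with RNAfold had 19 base pairs between the 22-base strands, 1 of them G with U, and a free energy of -41.9 kcal/mol. Each mature sequence was found in 1 of the 1005 RefSeq mouse hairpins. Of the 1679 named mature miRNAs in the RefSeq table, 0 others had the seed AGCUGCC and 0 others the seed GUUCUUC. The nearest other hairpin, Mir3971, was 87619 bases away.

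The libraries held 56377 to 1060306 miRNA reads, recovered from the deposited values, and the depth of all reads is not known. Undifferentiated cells had 18.9% to 27.2% of their miRNA reads on 8 ESC markers of the miR-290 cluster, all detected in every group. At day 7 these markers took 5.86% to 10.3% in B8 but 0.629% to 0.645% in D3, where they stood at 1.0% to 1.19% by day 21. All these are shares of all miRNA reads. In D3 the pair miR-10a-5p and miR-10b-5p, described below, took most of these reads at day 7 but a far smaller part at day 21. Summed shares of markers and lists, here and below, were not recalculated outside this pair. Whether the ESC markers rose in D3 between day 7 and day 21 was therefore not tested. In bulk samples like these, fewer cells of a type and less RNA per cell cannot be told apart.

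miR-22-3p was among the most abundant miRNAs in all 5 groups and was highest in D3 outgrowths. Its levels were known when it was selected, so they are given as a description, with no test. The first measure is its share of all miRNA reads in a library, which does not depend on the factors by which the authors divided the reads. In B8 ESCs the share was 5.16%, 4.94% and 4.81% in replicates 1 to 3 (4.97% ± 0.175, SD, n = 3). In B8 embryoid bodies it was 2.15%, 1.79% and 1.55% (1.83% ± 0.304, n = 3). All 3 libraries of day 7 lay below all 3 of day 0. D3 ESCs had 3.39%, 3.8% and 4.03% (3.74% ± 0.322, n = 3), each below the lowest B8 ESC library. D3 embryoid bodies had 1.02% and 1.07% (1.05% ± 0.0368, n = 2), the lowest values of the libraries analysed. The D3 outgrowths had 9.44%, 9.34% and 10.3% (9.68% ± 0.50, n = 3), the highest. Exact 95% binomial intervals were narrow against these steps, from 9.27% to 9.40% in replicate 2 of the outgrowths and from 1.48% to 1.61% in replicate 3 of the B8 embryoid bodies. Such intervals include counting error alone. They may be too narrow even for that, because PCR copies of a read are not separate molecules. By share the order was D3 day 21, B8 day 0, D3 day 0, B8 day 7 and D3 day 7, and libraries of neighbouring groups in this order did not overlap.

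By rank miR-22-3p was first of 1033 in all 3 outgrowth libraries. There miR-127-3p, an imprinted miRNA of the Dlk1-Dio3 region, came next with 7.93% ± 1.02, and its highest library (9.11%) was below the lowest of miR-22-3p (9.34%). In B8 ESCs miR-22-3p ranked 5 in every library, between miR-127-3p (6.79% ± 0.336) and miR-293-3p (3.04% ± 0.516), a member of the miR-290 cluster. It ranked 5 or 6 in D3 ESCs, where miR-292a-5p of the same cluster stood above it (5.86% ± 1.01) and miR-541-5p of the Dlk1-Dio3 region below (3.48% ± 0.346). At day 7 it ranked 8 to 11 in B8 and 8 or 9 in D3. The B8 neighbours, miR-295-3p of the miR-290 cluster (1.85% ± 0.958) and miR-25-3p (1.73% ± 0.153), overlapped it. In D3 at day 7 the neural miR-9-5p (1.16% ± 0.0394) was above it without overlap, and miR-16-5p (1.02% ± 0.0966) overlapped it. Its ranks thus stayed between 1 and 11 while the share moved 9.24-fold between D3 day 7 and day 21.

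**Figure D1:**
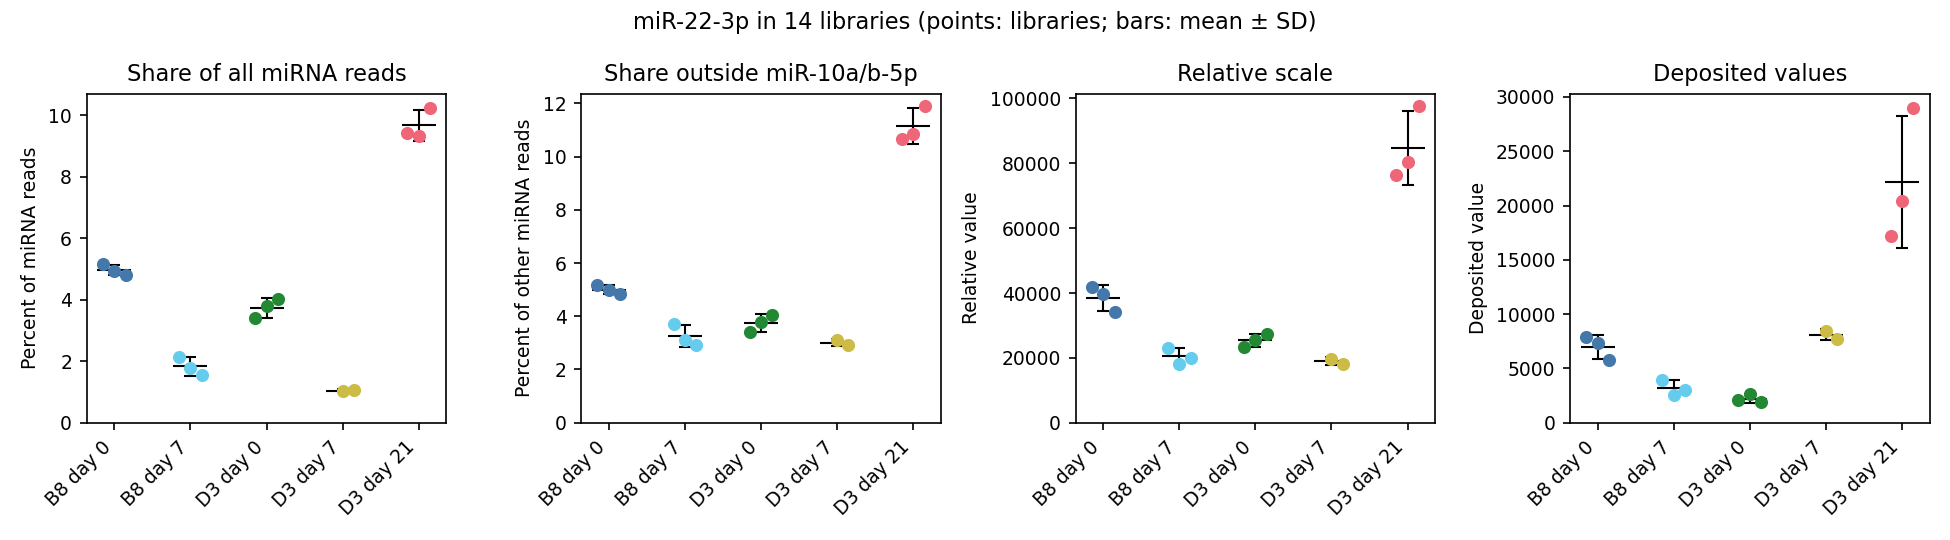
miR-22-3p in 14 libraries on 4 scales: percent of all miRNA reads, percent of reads outside miR-10a-5p and miR-10b-5p, relative value and deposited value (points, libraries; bars, mean ± SD). D3 day 21 is highest on every scale, whereas D3 day 7 is lowest on the first 3 and second highest as deposited.

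The levels at day 7 depended on what they were measured against. The Hox-embedded pair miR-10a-5p and miR-10b-5p, known from posterior and neural tissue, took 41.9% to 47.0% of day 7 miRNA reads in B8 and 63.3% to 67.0% in D3. The pair took 11.6% to 14% in D3 outgrowths, against 0.0807% to 0.660% at day 0. Of the reads outside these 2 miRNAs, miR-22-3p took 5.0% ± 0.178 in B8 ESCs, 3.25% ± 0.407 in B8 embryoid bodies, 3.74% ± 0.324 in D3 ESCs, 3.01% ± 0.123 in D3 embryoid bodies and 11.1% ± 0.673 in D3 outgrowths. D3 day 21 and B8 day 0 still stood apart from all other groups. D3 day 0 overlapped B8 day 7, and B8 day 7 overlapped D3 day 7.

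A relative scale divides each library by the median ratio of its miRNAs to their geometric means (median-of-ratios factors over 319 miRNAs), with a mean library total of 1000000. On it miR-22-3p was at 38529 ± 4024 in B8 ESCs, 20468 ± 2487 in B8 embryoid bodies, 25438 ± 1952 in D3 ESCs, 18974 ± 1150 in D3 embryoid bodies and 84689 ± 11312 in D3 outgrowths. The order was that of the shares, and B8 day 7 and D3 day 7 overlapped. As deposited, with the authors' factors, which differ from TMM factors computed on these reads, the values were 6983 ± 1109, 3186 ± 715, 2225 ± 387, 8110 ± 519 and 22192 ± 6088 in the same order of groups. This put D3 day 7 second and D3 day 0 last, D3 day 7 overlapping B8 day 0 and B8 day 7 overlapping D3 day 0. Of the statements on groups, D3 day 21 above all others and B8 day 0 above B8 day 7 held without overlap on all 4 scales. D3 day 0 was below B8 day 0 on all 4 as well.

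Differences between days were set beside those of the 521 miRNAs with a mean of at least 5 RPM (reads in every 1000000 miRNA reads). Both strands of miR-22 were among them. Log2 differences are of the relative value plus a pseudocount of 2. In B8 miR-22-3p was lower at day 7 by a log2 difference of -0.91 ± 0.13 (SE), where the median miRNA differed by -0.06, and 380th of 521 from the top. In D3 it was -0.42 ± 0.09 at day 7, against a median of 0.27, and 337th. As deposited the same D3 difference was 1.88 ± 0.16, with the median miRNA at 2.25, and it was 298th. The sign in D3 therefore turned with the scale, while the place of miR-22-3p was 298th to 350th of 521 over the 4 scales, below the median miRNA on each.

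From D3 embryoid bodies to outgrowths miR-22-3p was higher by a log2 difference of 2.15 ± 0.12 on the relative scale, which is 4.44-fold, and was 27th of 521. As deposited the fold was 2.67, by share 9.24, and the place 23rd to 30th over the 4 scales. Between D3 ESCs and outgrowths the log2 difference was 1.73 ± 0.13 (3.32-fold), with the median miRNA at 0.43, and miR-22-3p was 163rd. It was 130th to 168th over the scales. Its place was thus far higher in the later interval than over the 21 days, the 2 intervals sharing the outgrowth libraries. Between lines, D3 differed from B8 at day 0 by -0.60 ± 0.11 on the relative scale, -1.65 ± 0.20 as deposited and -0.41 ± 0.08 with equal totals, without overlap on any of these. At day 7 the difference was -0.10 ± 0.12 on the relative scale, where libraries overlapped. Without overlap it was 1.37 ± 0.19 as deposited and -0.79 ± 0.14 with equal totals, so its sign turned with the scale.

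miR-22-5p, the strand opposite, had few reads throughout, at most 8 in a library outside the D3 outgrowths and 11 to 21 in the outgrowths. B8 ESCs had 4, 6 and 2 reads, which are 14.5, 23.8 and 14.5 RPM, and B8 embryoid bodies 3, 3 and 0 reads. D3 ESCs had 1, 0 and 0 reads and D3 embryoid bodies 8 and 1. The D3 outgrowths had 11, 11 and 21 reads, or 20.1, 14.8 and 29.6 RPM. A count of 0 allows up to 3 reads, 21.2 RPM in replicate 3 of B8 at day 7, and 23.2 and 53.2 RPM in replicates 2 and 3 of D3 at day 0. Levels below these could therefore not be excluded in those libraries. A single read still counted as detected, as at 8.24 RPM in replicate 1 of D3 at day 0. In RPM, the outgrowths were above both D3 embryoid body libraries (7.55 and 0.992) and above the D3 ESC libraries (8.24, 0 and 0), and overlapped the B8 ESCs; on the relative scale they overlapped the D3 embryoid bodies. The exact intervals of the D3 ESC libraries reached 45.9, 28.5 and 65.4 RPM and so covered the outgrowth values of 14.8 and 20.1. miR-22-5p ranked 333 to 564 of 1033, the last from 1 read in replicate 3 of D3 at day 7. Where it had 0 reads, its rank (427, 485 or 500) was a tie with all undetected miRNAs. Such a rank is set by how many miRNAs were detected in the library.

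The balance of the strands was extreme in every group. Over 14 libraries there were 271997 reads of miR-22-3p and 71 of miR-22-5p, so the 5p strand made up 0.0261% of the reads of the locus (exact 95% interval 0.0204% to 0.0329%), or 3831 reads of 3p for each read of 5p (3037 to 4905). With reads summed over a group, the 5p percentage was 0.0360% in B8 ESCs (0.0186% to 0.0629%), 0.0505% in B8 embryoid bodies (0.0186% to 0.110%) and 0.00884% in D3 ESCs (0.000224% to 0.0493%). In D3 embryoid bodies it was 0.0416% (0.0190% to 0.0789%) and in D3 outgrowths 0.0222% (0.0160% to 0.0299%). All 5 intervals overlapped. They are for summed reads and leave out the spread between libraries, and their overlap is not a test. A difference in strand balance between groups was therefore neither tested nor excluded. Means over libraries were 0.0354% ± 0.0110, 0.0414% ± 0.0360, 0.00809% ± 0.0140, 0.0415% ± 0.0457 and 0.0220% ± 0.00651 in the same order. The value for D3 embryoid bodies rested on replicate 2, at 0.0739%, while replicate 3 stood at 0.00924%.

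**Figure D2:**
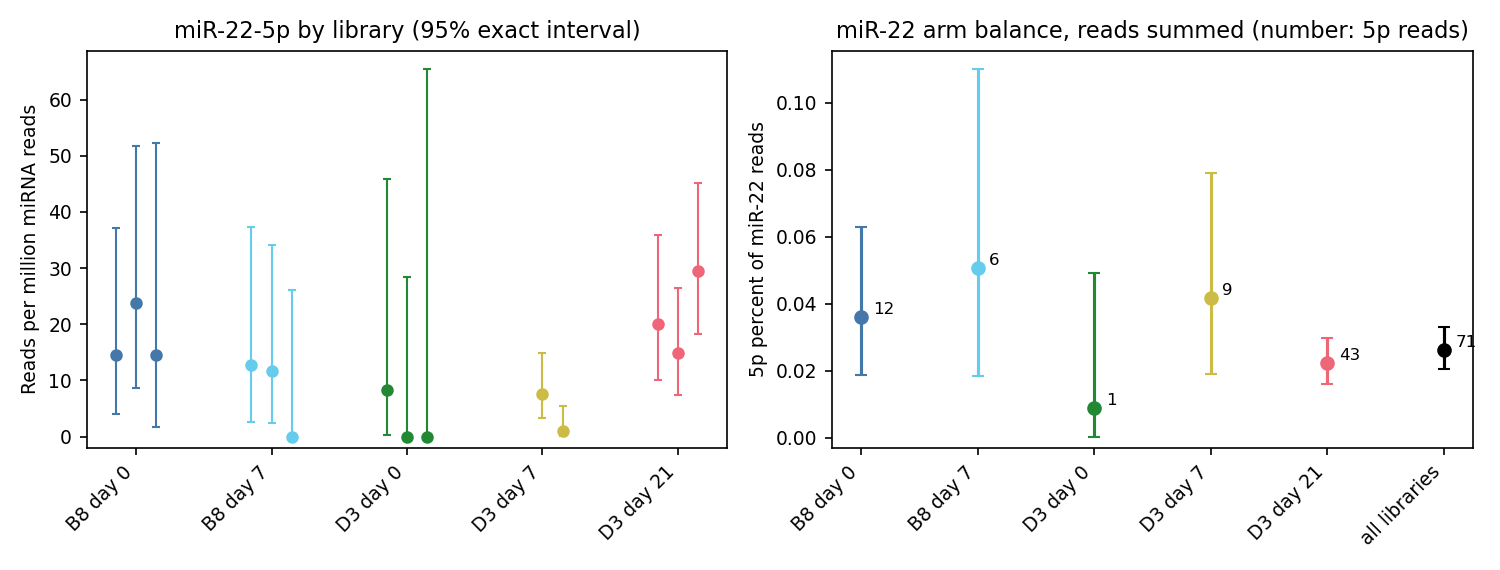
Left, miR-22-5p in RPM for each library with its exact 95% interval. Right, the 5p percentage of miR-22 reads summed over each group and over all libraries, with its exact 95% interval and the number of 5p reads. All 5 group intervals overlap, and D3 day 0 rests on 1 read.

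The strand balance was compared with that of other loci as a description. Among 259 loci with both strands listed in the table and at least 1 of them at 5 RPM, the minor strand made up a median of 4.56% of reads, and 5 loci had a lower percentage than miR-22: miR-298, miR-320, let-7g, miR-541 and miR-92b. They are named here by that place alone. Loci with only 1 strand listed could not be placed. Among the 51 loci with at least 10000 reads the same 5 were lower, and the median was 0.904%. Among the 149 loci with both strands at 5 RPM, a filter that removes loci with a scarce minor strand, 0 were lower and miR-182 came next at 0.0292%. Over the 5 groups the log2 ratio of 3p to 5p had an SD of 0.740 for miR-22, between miR-465b (0.727) and miR-378a (0.754), and was 83rd of these 149 from the lowest. With 1 to 43 reads of 5p in a group, this spread includes counting error. The ratio was taken on relative values plus the pseudocount of 2. In D3 ESCs miR-22-5p averaged 1.89 on that scale, so the pseudocount limited the ratio there.

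**Figure D3:**
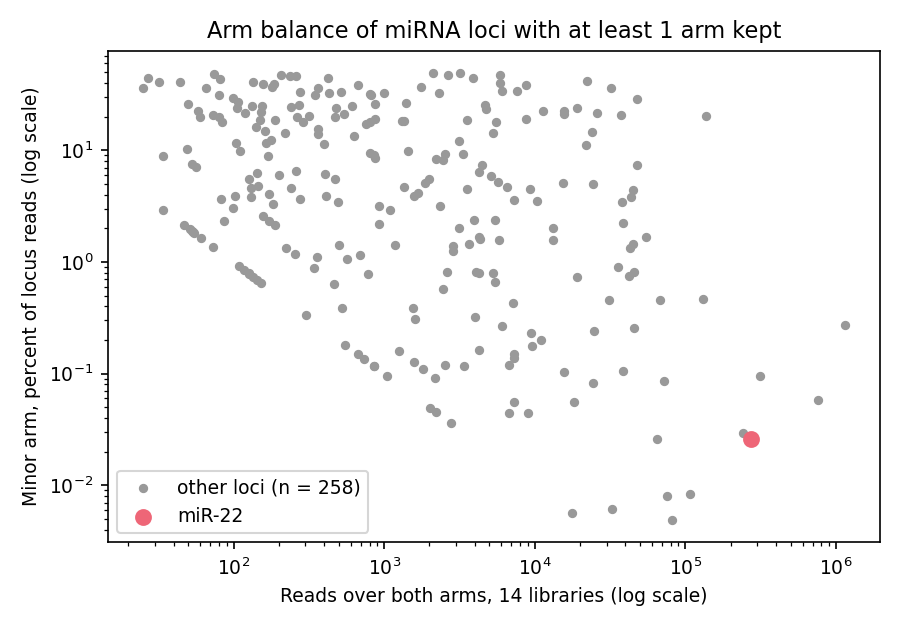
Minor strand as a percentage of locus reads against reads over both strands in 14 libraries, both axes on a log scale, for 259 loci with at least 1 strand kept. miR-22 lies at the lower right, at 0.0261%, with 5 loci below it.

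The profile of miR-22-3p over the 5 groups was compared with that of the other miRNAs above the median level (259). The measure was the root mean square difference of log2 relative values, each miRNA centred on its mean over the 5 groups. Library factors cancel in such a difference, apart from the pseudocount, so the measure hardly depends on the scale. The median over the 259 was 1.2. The nearest were miR-148a-3p (0.154), miR-23a-3p (0.244), miR-221-3p (0.296), miR-24-3p (0.368) and miR-21a-5p (0.378). These are shown to compare their seeds, bases 2 to 8 in capitals, with AGCUGCC of miR-22-3p.
miR-148a-3p: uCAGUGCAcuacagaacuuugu
miR-23a-3p: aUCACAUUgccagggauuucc
miR-221-3p: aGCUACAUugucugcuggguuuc
miR-24-3p: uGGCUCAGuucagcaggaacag
miR-21a-5p: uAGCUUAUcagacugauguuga

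The 5 have 5 different seeds, none of them that of miR-22-3p, and come from chromosomes 6, 8, X, 8 and 13, and 11. miR-148a-3p differed from miR-22-3p by the least: its centred log2 levels were -0.01, -0.55, -0.32, -0.58 and 1.47 in B8 day 0, B8 day 7, D3 day 0, D3 day 7 and D3 day 21, against 0.28, -0.64, -0.32, -0.74 and 1.41 for miR-22-3p. It was less abundant, at 1.33% ± 0.326 of miRNA reads in the outgrowths and 0.155% ± 0.0453 in D3 embryoid bodies. miR-21a-5p, a miRNA of proliferating and mesenchymal cells, had 1.48% ± 0.303 in the outgrowths, 0.160% ± 0.00521 in D3 embryoid bodies and 1.01% ± 0.0759 in B8 ESCs. Its centred level in B8 embryoid bodies, -1.29, was further down than the -0.64 of miR-22-3p. miR-23a-3p and miR-24-3p were at or below 0.03% in all groups. Nearest to miR-22-5p were miR-23b-3p (0.255), miR-34c-5p (0.440) and miR-26b-5p (0.602), a likeness that rests on the few reads of miR-22-5p.

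**Figure D4:**
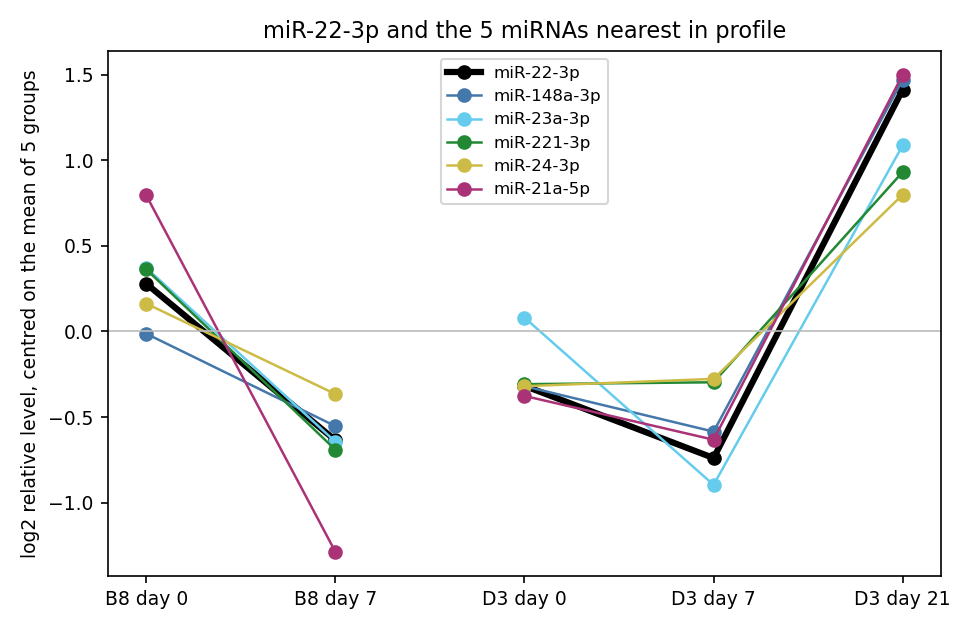
log2 relative level of miR-22-3p (thick line) and the 5 miRNAs nearest to it in profile, each centred on its mean over the 5 groups of line and day; lines join the days of 1 cell line. All 6 are highest at D3 day 21, and miR-21a-5p is furthest from miR-22-3p in B8 at both days.

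miR-22 was set beside 3 lists of other miRNAs: 10 known to repress Tet genes, 8 of heart and skeletal muscle and 8 of smooth muscle and mesenchyme. Calls are limma adjusted p-values under 0.05 on the relative scale. In D3 from day 7 to day 21, where miR-22-3p was 4.44-fold higher, 26.5% of all 521 miRNAs were called, 16.1% rising and 10.4% falling. Of the Tet list 4 of 10 rose and 0 fell, among them miR-26a-5p (log2 change 0.81 ± 0.19 SE, limma adjusted p = 0.00505), miR-26b-5p (0.85 ± 0.26, adjusted p = 0.0216) and miR-29a-3p (2.79 ± 0.28, adjusted p = 1.57e-06). The list median was 0.63, against 0.02 for all miRNAs. Without D3 day 7 replicate 2 or 3, calls over all miRNAs dropped from 138 to 79 or 67 and those of the Tet list to 3 or 2 up.

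Of the smooth muscle and mesenchyme list 5 of 8 rose and 0 fell from day 7 to day 21 in D3 (median log2 change 1.17; 2 rose without either day 7 replicate, or without replicate 2 or 3 of day 21). miR-143-3p of smooth muscle rose by 1.84 ± 0.21 (limma adjusted p = 6.24e-06) and miR-199b-3p by 1.16 ± 0.37 (adjusted p = 0.0277), though its reads and those of miR-199a-3p may be divided arbitrarily. Of the heart and skeletal muscle list 5 of 8 passed the filter and 3 rose: miR-208b-3p, miR-1a-3p and miR-133a-3p. The filter used the mean over all libraries, so a member high in the outgrowths alone could pass through that group. For such a member, a rise into the outgrowths was partly fixed in advance. The summed share of the first list ran from 6.90% to 8.84% in the outgrowths and from 1.17% to 1.53% in D3 embryoid bodies, and that of the second from 0.175% to 0.407% and from 0.0248% to 0.0316%, with miR-206-3p and miR-208a-3p at 0 in D3 embryoid bodies. The part of muscle or mesenchymal cells in the level of miR-22-3p was not tested. The share of miR-22-3p in B8 ESCs, 4.97%, went with 2.50% to 2.87% of mesenchyme miRNAs and 0.00723% to 0.0116% of heart and skeletal muscle miRNAs, of which miR-133b-3p, miR-206-3p and miR-208a-3p were at 0. In D3 ESCs, with miR-22-3p at 3.74%, mesenchyme miRNAs took 0.647% to 0.770%, with miR-214-3p and miR-214-5p at 0. In B8 embryoid bodies, with miR-22-3p at 1.83%, they took 0.577% to 1.72%. The mesenchyme list includes miR-21a-5p (1.01% in B8 ESCs), which is among the miRNAs nearest to miR-22-3p in profile.

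Blood markers, which include the erythroid miR-144-3p and miR-451a, had a summed share of at most 0.0193% outside B8 ESCs, where it was 0.256% to 0.287% with miR-144-3p, miR-451a and miR-223-3p at 0. Endoderm markers took 0.253% to 0.307% in the outgrowths and 0.0398% to 0.120% in the other groups, and neural markers 0.631% to 0.759% in the outgrowths against 1.11% to 1.38% at day 7.

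Over the longer interval in D3, from day 0 to day 21, 63.0% of miRNAs were called, 38.0% rising and 25.0% falling. Of the Tet list 4 rose and 1 fell, of the mesenchyme list 8 and 0 and of the muscle list 5 and 0 of 5 tested. The summed share of the muscle list averaged 0.258% at D3 day 21 and 0.0139% at D3 day 0. Its members could thus pass the filter through the outgrowths, so its count of rises was partly fixed in advance. From day 0 to day 7, where miR-22-3p was lower in both lines on the relative scale, 52.6% of miRNAs were called in B8 (26.9% rose, 25.7% fell) and 63.0% in D3 (36.1% and 26.9%). The Tet list had 1 up and 5 down in B8 and 3 and 3 in D3. The mesenchyme list had 2 and 3 in B8, with miR-143-3p and miR-21a-5p among those that fell, and 7 and 0 in D3. In B8 1 of that list rose without B8 day 0 replicate 1 or without B8 day 7 replicate 2. The muscle list had 2 and 0 in B8 (1 fell without B8 day 7 replicate 2) and 3 and 0 in D3, of 5 tested. In D3 the counts over all miRNAs and of the Tet list turned with the scale. As deposited 70.4% of miRNAs rose and 6.91% fell by day 7, with 7 and 2 of the Tet list. Scaling all columns to the same total gave 21.1% up and 44.7% down, with 1 and 5 of that list. The mesenchyme list still mostly rose, with 8 up and 0 down as deposited and 6 and 1 with equal totals. The muscle list had 5 and 0 as deposited and 2 and 0 with equal totals. From day 7 to day 21 the deposited scale gave 8.06% up and 31.5% down, and equal totals 38.0% and 2.11%. In that interval the Tet list had 2 up and 1 down as deposited and 6 and 0 with equal totals, the mesenchyme list 3 and 1 and then 7 and 0, and the muscle list 4 and 1 and then 4 and 0. By day 21 against day 0 the deposited scale gave 65.3% and 10.2%, with 7 and 1 of the Tet list. In B8 by day 7 equal totals gave 18.2% and 35.7%, with 0 and 5 of that list.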

How the data were processed

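The deposited table holds signal: per the file headers, reads per mature miRNA after cutadapt and a length step, divided by the authors by 1 factor per library, TMM being named by the table's title. These factors did not match TMM factors computed with edgeR on all miRNA rows: relative to them, the deposited scaling varied 6.57-fold over the 14 libraries, and its basis is not given in the sources used here. The submitters' processing notes name CASAVA, FastQC, Bowtie, Partek and mm10, and rules for reads that match several miRNAs are not given in the sources used here. Reads were recovered from the step size of each library: up to 1000 reads, 100% of values fell within 0.01 of a whole read. Depth ran from 56377 to 1060306 miRNA reads.

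Shares, ranks, strand balance with exact (Clopper-Pearson) 95% intervals, relative values (median-of-ratios factors) and profile likeness were computed in Python 3.11.15, and the fold with RNAfold 2.7.2. For the lists of other miRNAs, limma 3.58.1 (R 4.3.3) was fitted to log2(relative value + 2) of the 521 miRNAs averaging 5 or more RPM (reads in every 1000000 miRNA reads), as 5 group means with a trended prior, 2-sided, with Benjamini-Hochberg adjustment. It was tested on simulated counts with 1 dispersion for all miRNAs and the same means in every group. In 1 group, 200 of the 521 miRNAs were then changed in random directions. The data differ from this, as in the large shift of miR-10a-5p and miR-10b-5p, so the rates may not hold for them. Over the 4 comparisons limma recovered 32.8% to 49.8% of simulated 2-fold changes and 65.6% to 78.1% of 4-fold changes, both lowest for D3 day 21 against day 7. False calls made up 0.415% to 6.79% of calls, most in D3 day 21 against day 0. A miRNA that was not called may therefore still have changed. edgeR 4.0.16 on recovered reads, other scales, pseudocounts (0.2 and 10), filters (none and 50 RPM), a prior without trend, compared groups alone, a replicate block and leaving out each library were tried. The relative scale was chosen since deposited values carry a shift common to most miRNAs. Whether that shift is technical or a real change was not tested. Median-of-ratios factors take the median miRNA as unchanged, which was not tested either.

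Named miRNAs were the 2 strands, those next to miR-22-3p in rank in each group, the 5 nearest to it and 3 nearest to miR-22-5p in profile, the 2 loci next to it in the spread of strand balance and up to 3 called members of each list, by abundance. The members and lists were chosen with earlier results of these data known. Replicate libraries of each group differed by more than sampling noise (chi-square per degree of freedom 3.28 to 48.6). One further list of miRNAs is not reported here.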

Additional observations from a re-analysis of the deposited data

How the results depend on the processing

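For miR-22-3p the log2 difference of D3 day 7 from day 0, -0.42 on the relative scale, reversed to 1.88 as deposited and was -1.83 with equal column totals; by construction the scales differ by the factor of each library. The other differences between days kept their sign on all 4 scales: B8 day 7 from day 0 ran from -1.45 to -0.63 over the alternatives, D3 day 21 from day 0 from 1.37 to 3.30 and D3 day 21 from day 7 from 1.42 to 3.21. Outside miR-10a-5p and miR-10b-5p the share of miR-22-3p moved to 3.25% in B8 day 7, 3.01% in D3 day 7 and 11.1% in D3 day 21, and that of miR-22-5p in D3 day 7 to 0.00128%. The 5 miRNAs nearest to miR-22-3p were the same 5 with a pseudocount of 10. The number of loci more one-sided than miR-22 was 5 or 0, depending on the filter; the wider sets of loci were chosen after seeing the data.

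Called miRNAs numbered 274 (B8 day 7 against day 0), 328 (D3 day 7 against day 0), 328 (D3 day 21 against day 0) and 138 (D3 day 21 against day 7). The last was 209 with equal column totals, 206 as deposited, 232 with the compared groups alone and 214 by edgeR, and 67 to 124 with 1 library left out; the cause was not tested beyond the fewer samples of the last. The third was 215 with a filter at 50 RPM, which tests fewer miRNAs. edgeR on recovered reads called 265, 327 and 339 in the other 3 comparisons. With a replicate block the counts were 272, 320, 327 and 145. Whether a shared replicate number marks a shared culture or batch is not labelled. Deviations correlated above 0.1 in 1 of 26 same-numbered pairs (-0.12 to 0.13), and 4 of 14 libraries correlated best with their own number. With so few libraries in each group, these correlations cannot decide whether same-numbered libraries were paired. Depth limits miR-22-5p, with 0 to 21 reads in a library.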
